A study of Mus musculus with 4 samples.

Results

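The inflammatory genes followed here across the differentiation of mouse embryonic stem cells into cardiomyocytes were the chemokines Cxcl10 (NM_021274), Cxcl9 (NM_008599), Cxcl1 (NM_008176), Cxcl5 (NM_009141), Cxcl12 (NM_021704), Ccl2 (NM_011333), Ccl5 (NM_013653), Ccl7 (NM_013654) and Ccl20 (NM_016960) and the cytokine Il6 (NM_031168). They are 10 of the 20885 genes that had a probe with a RefSeq symbol, and 11 of the 39428 unique probes analysed carried their identifiers, 2 of them for Cxcl9. The genes were selected on the measured values of these same arrays, so their levels and ratios are a description and no test was made of them. The arrays covered 4 populations. Flk1+ MPCs were mesodermal precursor cells, positive for the VEGF receptor Flk1, at day 4.5 of culture without leukemia inhibitory factor. PCBs were the PDGFRα+ Flk1- cardioblasts at day 5.5, from culture with CsAYTE. CsAYTE is a combination of Cyclosporin A with EW7197, which inhibits ALK5, Y27632, which inhibits ROCK, and Trolox, an antioxidant. In the paper's protocol these compounds were added only after the Flk1+ MPCs had been sorted at day 4.5. The sfPCBs were PCBs formed spontaneously at day 5.5 without CsAYTE, for which DMSO was the vehicle. M+CMs were αMHC+ mature cardiomyocytes at day 10.5, which the paper describes as derived from PCBs. The label of the M+CM sample does not say whether the cells had received CsAYTE.

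There was 1 array and 1 sample per population, so no difference below has a replicate check, and a ratio between populations compares single samples. The methods describe the EMG7 line, a stem cell line with GFP driven by the αMHC promoter, and the plating of sorted Flk1+ MPCs either on OP9 cells, a mouse bone marrow stromal line treated to stop its division, or on gelatin. The study induced mouse PCBs in culture with OP9 cells and not without feeders, but the labels of the arrayed samples do not name the culture surface. All values are the scanner software's background-subtracted signal after scaling of each array to a common 75th percentile of 2198 units. Between 72.9% and 76.0% of probes were called well above background on an array, no spot was saturated, and after scaling the dimmest such probe stood at 15.1 to 15.9 units. A fold against a signal that was not well above background was computed from this limit, or from the probe's own signal where that was higher, and is written as "at least". Errors of log2 ratios come from the software's signal errors and cover the spot and its background only.

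Chemokines are small secreted proteins that draw cells along a gradient by binding G protein-coupled receptors on them. They are named by the spacing of their first cysteines, CXC or CC. CXCL1 and CXCL5 attract neutrophils, CXCL9 and CXCL10 attract activated T cells through CXCR3, CCL2 and CCL7 attract monocytes through CCR2, and CCL5 attracts T cells and monocytes. CXCL12 is the constitutive ligand of CXCR4 that guides progenitor cells in the embryo and in bone marrow, and CCL20 is the ligand of CCR6. IL-6 signals through IL-6Rα and the shared chain gp130 to STAT3. Many of these genes are known targets of NF-κB, and Cxcl9 and Cxcl10 are known targets of interferon signalling. Stromal cells and fibroblasts are known to make several of them.

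The sequences before the start sites are shown because 8 of the 10 genes had their higher signals in the same pair of populations. RefSeq (GRCm38.p6) gave a promoter for 6 of the 10 genes, and Cxcl5, Ccl2, Ccl5 and Ccl7 had no entry. The 250 bases before the start were searched on both strands for the κB consensus bound by NF-κB, for the interferon-stimulated response element as GAAANNGAAA (ISRE), for the AP-1 site TGANTCA and for the STAT site TTCNNNGAA. The κB consensus was matched in 4 of the 6 promoters and in 7.25% of all 32851 promoters of that length. The ISRE was matched only in Cxcl10 among the 6, against 2.98% of all promoters. The AP-1 site was matched in Il6 and Cxcl10, against 6.75% of all, and the STAT site in none of the 6, against 7.02% of all. The 4 promoters with a κB match follow from 220 bases before the start up to the base before it, 5′ to 3′ on the strand of the gene, with κB and ISRE matches in capitals.
Cxcl10, chr5:92348890-92349109, minus strand: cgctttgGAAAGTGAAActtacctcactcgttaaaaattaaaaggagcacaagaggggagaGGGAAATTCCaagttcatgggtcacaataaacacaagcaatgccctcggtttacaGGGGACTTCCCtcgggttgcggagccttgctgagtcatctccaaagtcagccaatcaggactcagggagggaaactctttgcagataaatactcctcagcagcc
Cxcl1, chr5:90891025-90891244, plus strand: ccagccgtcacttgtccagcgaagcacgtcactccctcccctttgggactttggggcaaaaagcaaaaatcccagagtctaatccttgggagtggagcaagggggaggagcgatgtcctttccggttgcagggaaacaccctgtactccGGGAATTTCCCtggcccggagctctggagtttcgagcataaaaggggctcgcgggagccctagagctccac
Il6, chr5:30012894-30013113, plus strand: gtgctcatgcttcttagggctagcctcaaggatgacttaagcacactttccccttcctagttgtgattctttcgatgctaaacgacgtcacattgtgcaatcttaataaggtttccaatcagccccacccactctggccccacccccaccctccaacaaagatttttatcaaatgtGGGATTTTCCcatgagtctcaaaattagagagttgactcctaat
Ccl20, chr1:83116546-83116765, plus strand: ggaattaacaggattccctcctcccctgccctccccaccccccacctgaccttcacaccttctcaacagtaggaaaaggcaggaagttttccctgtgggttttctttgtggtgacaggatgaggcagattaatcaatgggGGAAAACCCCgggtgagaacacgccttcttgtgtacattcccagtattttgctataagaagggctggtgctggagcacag
In Cxcl10 the ISRE lay 213 to 204 bases before the start, 1 κB match lay 159 to 150 bases before it, and 2 overlapping κB matches spanned bases 104 to 94. Cxcl1 had overlapping κB matches on both strands between bases 71 and 61, Il6 had 1 at bases 44 to 35, and Ccl20 had 1 on the opposite strand at bases 80 to 71. No match of one motif overlapped a match of another. Cxcl9 and Cxcl12 had no κB or ISRE match in this window. The letters did not separate the genes by signal, since Ccl20 held a κB match and was not well above background in any population, while Cxcl12 held none and was bright in both day 5.5 populations.

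The 8 genes Cxcl1, Cxcl5, Cxcl10, Cxcl12, Ccl2, Ccl5, Ccl7 and Il6, were brighter in both day 5.5 populations than in the precursors or the cardiomyocytes. Cxcl9 was dim throughout and Ccl20 was not well above background in any population. Of the 9 genes that could be compared between PCBs and Flk1+ MPCs, 9 had at least 2-fold more signal in PCBs, where 12.8% of all probes were, and 8 were at least 30-fold higher, where 1.36% of all probes were. The same numbers were reached with undetected signals raised to the detection limit, where the median log2 ratio was 7.71 beside -0.19 over all probes (8.34 and -0.20 with the signals as measured, which have no firm size for Ccl7 and Il6). Between sfPCBs and Flk1+ MPCs, 8 of 9 were at least 2-fold higher (13.1% of all probes) and the same number at least 30-fold higher (1.3% of all probes), with a median at the limit of 7.11 beside -0.22. These contrasts share the Flk1+ MPC array. The genes were selected for this pattern, so nothing is read from the counts. Without scaling, the median over all probes moved from -0.20 to -0.01 for PCBs over Flk1+ MPCs and from -0.22 to 0.11 for sfPCBs over Flk1+ MPCs.

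**Figure D1:**
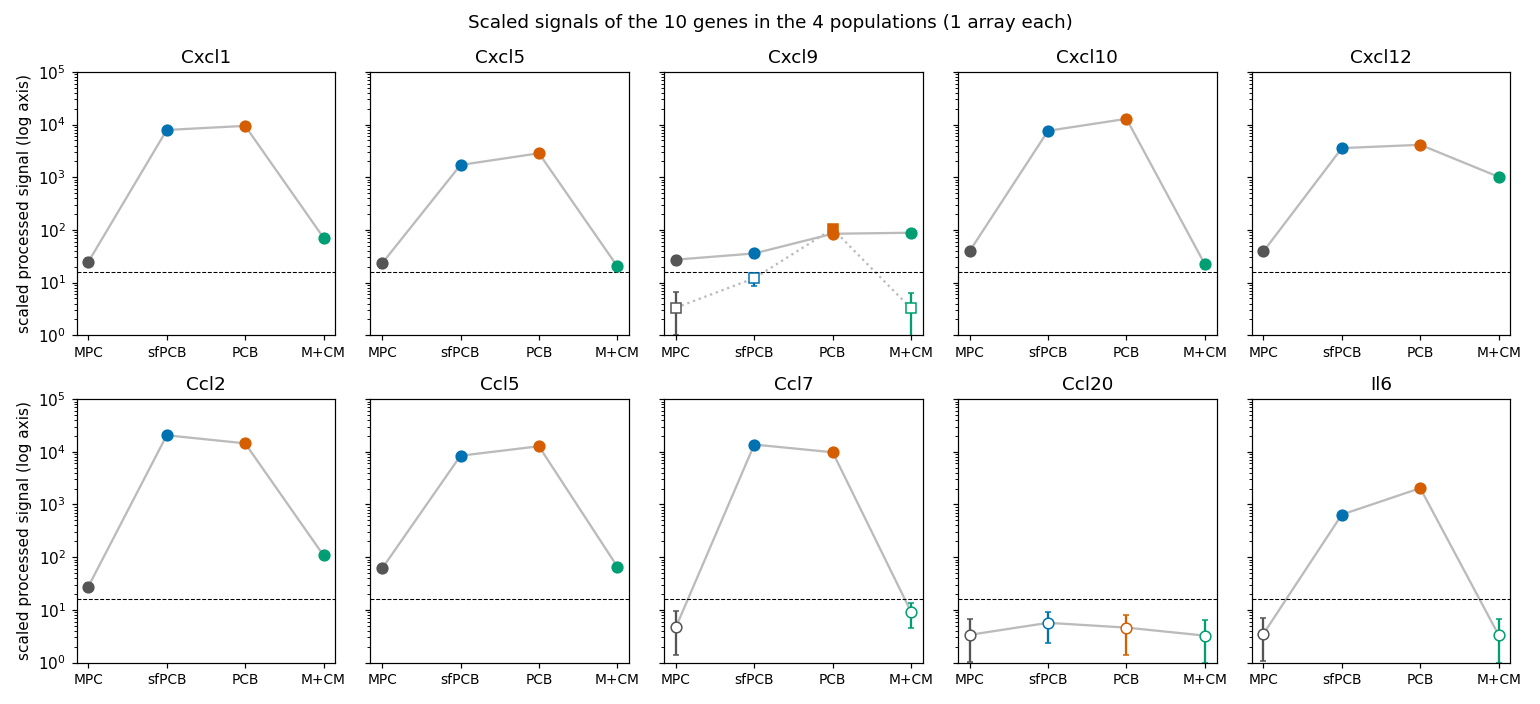
Scaled processed signal (log axis) of the 10 genes in Flk1+ MPCs, sfPCBs, PCBs and M+CMs, 1 array each; error bars are the software's signal error, open symbols were not well above background, the dashed line is the highest of the 4 detection limits (15.9), squares are the other Cxcl9 probe, and lines only join the points of 1 probe. There, 8 of the genes stood high in both sfPCBs and PCBs, whereas Cxcl9 stayed at or below 105 units and Ccl20 under the detection limit.

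Among the neutrophil attractants, Cxcl1 measured 24.8 units in Flk1+ MPCs, 7887 in sfPCBs and 9437 in PCBs, and 71.1 in M+CMs. Cxcl5 measured 23.2, 1708, 2849 and 20.4 units in the same order. For both genes the day 5.5 populations stood far above the other populations. The log2 ratio of PCBs over Flk1+ MPCs was 8.57 ± 0.29 for Cxcl1 and 6.94 ± 0.28 for Cxcl5. In RefSeq's gene order Cxcl1 lies between Cxcl15 and Cxcl2, and both neighbours were detected in the day 5.5 populations alone, Cxcl2 at 111 units in sfPCBs and 139 in PCBs and Cxcl15 at 37.7 and 42.1. Next to Cxcl5, Ppbp was detected in sfPCBs alone, at 26.3 units, and the following genes Pf4 and Cxcl3 were not well above background in any population.

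The interferon-induced chemokines Cxcl9 and Cxcl10 lie close together, with the gene Art3 between them in RefSeq's order, and had different profiles. Cxcl10 measured 39.7 units in Flk1+ MPCs, 7609 in sfPCBs and 12848 in PCBs, and 22.2 in M+CMs. It was thus low in the precursors and in the cardiomyocytes, and 192-fold higher in sfPCBs and 324-fold in PCBs than in the precursors. The brighter Cxcl9 probe measured 27.3, 35.7, 84.5 and 88.3 units in the same order. The other Cxcl9 probe was well above background in PCBs alone, at 105 units, against 3.34, 12.1 and 3.23 units in Flk1+ MPCs, sfPCBs and M+CMs. Both probes were higher in PCBs than in sfPCBs, 2.36-fold by the brighter and at least 6.91-fold by the other, but they disagreed on M+CMs, where the brighter probe was level with PCBs and the other at least 6.83-fold lower. Art3, an ADP-ribosyltransferase family gene, measured 43.0, 38.1, 71.5 and 3243 units and followed neither chemokine.

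Of the genes that were bright at day 5.5, Cxcl12 kept the largest share of its PCB signal in the cardiomyocytes. Its transcript NM_021704 measured 39.1 units in Flk1+ MPCs, 3570 in sfPCBs and 4125 in PCBs, and 1018 in M+CMs. M+CMs were thus 4.05-fold below PCBs and 26.0-fold above Flk1+ MPCs. A probe for another Cxcl12 transcript, NM_001012477, which was not among the 10 chosen, measured 893, 21426, 8915 and 2758 units. Both probes were higher at day 5.5 than in the other populations, but they differed in order between the day 5.5 populations. The log2 ratio of PCBs over sfPCBs was 0.21 ± 0.20 for NM_021704 and -1.26 ± 0.20 for NM_001012477, and that of PCBs over Flk1+ MPCs was 6.72 ± 0.26 and 3.32 ± 0.20.

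The monocyte attractants Ccl2 and Ccl7, neighbours in RefSeq's order, had the same profile. Ccl2, printed on 10 spots per array, measured 27.7 units in Flk1+ MPCs, 20588 in sfPCBs and 14457 in PCBs, and 108 in M+CMs. The SD over its spots was between 0.053 and 0.27 on the log2 scale, largest in Flk1+ MPCs where the probe was dimmest. Ccl7 measured 13730 units in sfPCBs and 9784 in PCBs, and its 4.70 units in Flk1+ MPCs and 9.14 in M+CMs were not well above background. The signal of Ccl7 over Flk1+ MPCs was thus at least 861-fold in sfPCBs and at least 614-fold in PCBs. Of the chemokine genes that follow them, Ccl11 was not well above background in any population, Ccl12 measured 33.4 units in Flk1+ MPCs and 24.0 in sfPCBs and was not well above background elsewhere, and Ccl8 reached 37.0 units in sfPCBs and 19.7 in PCBs. High signal in this cluster was seen for Ccl2 and Ccl7 and not for these neighbours.

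Ccl5 measured 61.0 units in Flk1+ MPCs, 8431 in sfPCBs and 12737 in PCBs, and 66.3 in M+CMs. The precursors and cardiomyocytes were level, with a log2 ratio of 0.12 ± 0.23, and PCBs stood 209-fold above the precursors. Its neighbour Ccl9, a myeloid cell attractant, measured 3246 units in sfPCBs and 1509 in PCBs against 37.8 in M+CMs and 19.8 in Flk1+ MPCs, where it was not well above background. Beyond Ccl9, Ccl6 was not well above background in any population and Ccl3 only reached 22.3 units in M+CMs. Ccl20, the ligand of CCR6, measured between 3.24 and 5.67 units, under the detection limit on all 4 arrays, so no ratio is given for it.

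Il6 was well above background in the day 5.5 populations alone. It measured 3.51 units in Flk1+ MPCs, 643 in sfPCBs and 2038 in PCBs, and 3.33 in M+CMs. PCBs were therefore at least 128-fold above Flk1+ MPCs and at least 133-fold above M+CMs, and sfPCBs at least 40.3-fold above Flk1+ MPCs. Profiles nearest to that of Cxcl10 were looked up among transcripts with a curated RefSeq identifier and symbol, well above background in both sfPCBs and PCBs. This filter used the populations where Cxcl10 was high, and Il6 was itself selected on these arrays, so nearness is only a description. Measured as the Euclidean distance between log2 profiles centred over the 4 arrays, among 19889 transcripts, the nearest to Cxcl10 were Xdh at 0.59, Ly6c1 at 0.69, Sorcs1 at 0.79, Il6 at 0.84 and Cidec at 1.16. Xdh encodes xanthine dehydrogenase, Ly6c1 a surface antigen, Sorcs1 a sorting receptor and Cidec a lipid droplet protein. This likeness rests on 4 values per transcript, and for Xdh, Sorcs1, Il6 and Cidec the values in Flk1+ MPCs and M+CMs were not well above background, so their distances and their order are not firm. Of these, only Ly6c1 was well above background in all populations, with 151 units in Flk1+ MPCs, 30182 in sfPCBs and 43640 in PCBs, and 48.2 in M+CMs.

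The comparison of PCBs with sfPCBs asks how the genes differed with and without CsAYTE at the same day. Of 9 genes, 2 (Il6 and Cxcl9) were at least 2-fold brighter in PCBs (6.13% of all probes) and 0 were at least 2-fold lower (7.36% of all probes), with a median log2 ratio of 0.60 beside 0.03 over all probes. Il6 was 3.17-fold higher in PCBs, a log2 ratio of 1.66 ± 0.20. The 5 genes Il6, Cxcl9, Cxcl10, Cxcl5 and Ccl5, were higher in PCBs by over 2 signal errors, with log2 ratios of 0.60 to 1.66. Ccl2 and Ccl7 were lower in PCBs by over 2 errors, with -0.51 ± 0.20 and -0.49 ± 0.20. Cxcl1 at 0.26 ± 0.20 and Cxcl12 at 0.21 ± 0.20 lay within 2 errors. The share of all probes that differed by over 2 errors was not counted. Over all probes the lower and upper quartiles of this ratio were -0.28 and 0.30. Nothing is therefore read from the number of genes past 2 errors. The signs were the same under every alternative run, with ranges of 1.51 to 1.68 for Il6 and -0.66 to -0.51 for Ccl2, but how far 2 cultures of one kind would differ is not known.

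**Figure D2:**
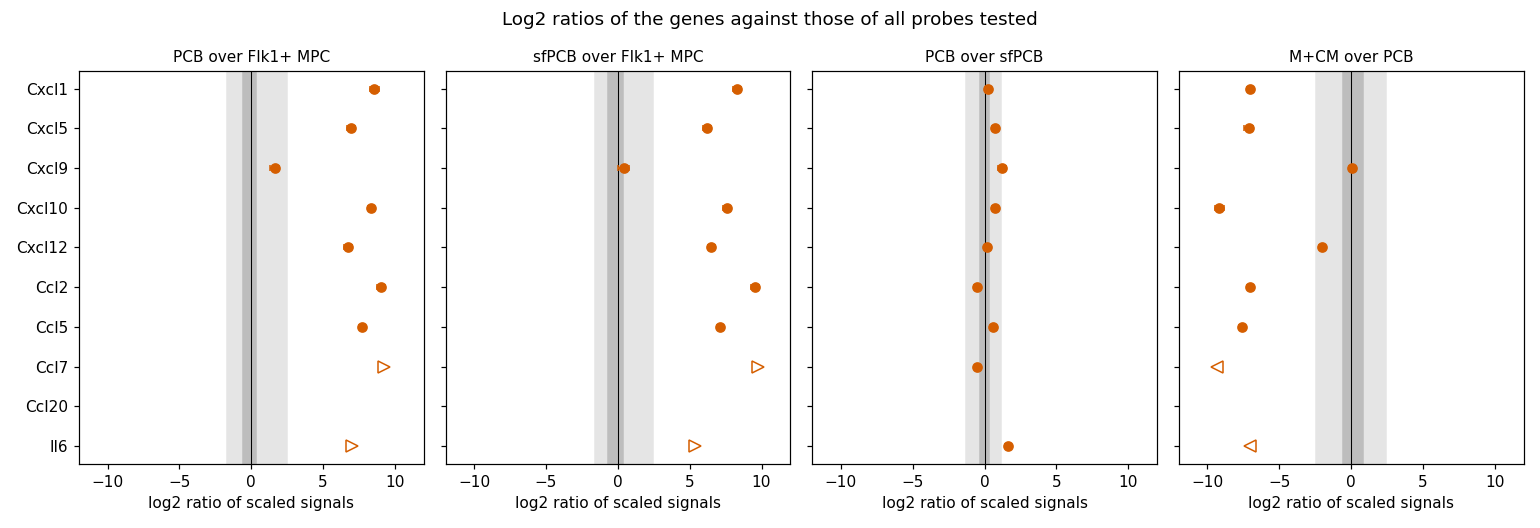
Log2 ratios of scaled signals for the members in 4 comparisons; circles are measured ratios with the software's error, open triangles are lower limits of the fold where the dim array was not well above background, and grey bands hold the middle 50% and 90% of all probes tested. In PCBs and sfPCBs over Flk1+ MPCs 8 genes lay to the right of the wider band, whereas in PCBs over sfPCBs the genes lay between -0.51 and 1.66; Ccl20 has no symbol because it was not well above background.

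From PCBs to M+CMs, 8 of 9 genes were at least 2-fold lower (15.4% of all probes) and 7 at least 30-fold lower (0.819% of all probes), with a median log2 ratio at the limit of -7.06 beside 0.14. None was at least 2-fold higher, against 20.5% of all probes. Cxcl10 was 578-fold lower in M+CMs, Ccl5 192-fold, Cxcl5 140-fold, Ccl2 134-fold and Cxcl1 133-fold, while Ccl7 was at least 639-fold lower. Cxcl12 was the gene lower by less than 30-fold, and the brighter Cxcl9 probe was the exception with a log2 ratio of 0.06 ± 0.23. Compared with Flk1+ MPCs, 4 of 7 genes had at least 2-fold more signal in M+CMs (22.4% of all probes), Cxcl12 with a log2 ratio of 4.70 ± 0.26, Ccl2 with 1.96 ± 0.28, Cxcl9 with 1.70 ± 0.33 and Cxcl1 with 1.52 ± 0.30. Apart from Cxcl12, these genes measured 71.1 to 108 units in M+CMs.

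The receptors of these ligands had another profile. Of 15 receptor genes, 10 were well above background in at least 1 population. Ccr2, the receptor of CCL2 and CCL7, and Ccr1, which binds CCL5 and CCL7, were not well above background in any. Cxcr2, the receptor of CXCL1 and CXCL5, measured 14.3 to 19.4 units, not well above background in sfPCBs, and Cxcr3, the receptor of CXCL9 and CXCL10, 17.8 to 36.3 units, not well above background in PCBs. In PCBs over Flk1+ MPCs, 3 of 10 were at least 2-fold higher (12.8% of all probes) and 2 at least 2-fold lower (12.1% of all probes), with a median log2 ratio of 0.59. In sfPCBs over Flk1+ MPCs, 3 were higher (13.1% of all probes) and 1 lower (12.6% of all probes).

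The receptor Cxcr4 was brightest in Flk1+ MPCs, where its ligand Cxcl12 was dimmest. Cxcr4 measured 4152 units in Flk1+ MPCs, 538 in sfPCBs and 22.1 in PCBs, and 40.0 in M+CMs. The log2 ratio of PCBs over Flk1+ MPCs was -7.55 for Cxcr4 and 6.72 for Cxcl12. Ackr3, which binds and clears CXCL12, measured 8432, 9972, 1078 and 1093 units, and was thus high in sfPCBs and lower in PCBs. Among the IL-6 receptor chains, Il6ra, the ligand-binding chain, measured 662, 1755, 2140 and 85.3 units, and Il6st, which encodes gp130, measured 1365, 3875, 7097 and 12750 units. Il6ra was thus lowest in M+CMs, where Il6st was brightest. Ackr1, a scavenger of inflammatory chemokines, measured 47.0, 109, 198 and 95.4 units. Since RNA was taken from whole populations, a signal spread over few cells and a lower level in every cell cannot be told apart.

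**Figure D3:**
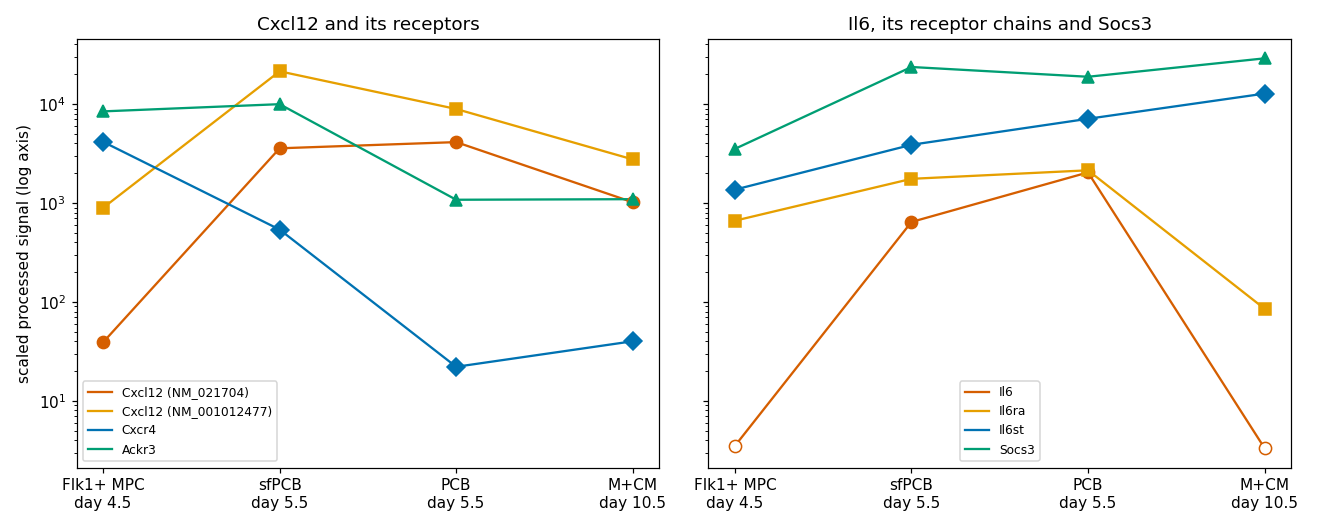
Scaled processed signal (log axis) in the 4 populations of Cxcl12 (NM_021704 and NM_001012477) with the receptors Cxcr4 and Ackr3, and of Il6 with Il6ra, Il6st and the feedback inhibitor Socs3; open symbols were not well above background and lines only join the points of 1 probe. Cxcr4 went from 4152 units in Flk1+ MPCs to 22.1 in PCBs, opposite to Cxcl12, and Il6st and Socs3 remained bright in M+CMs, where Il6 was not well above background.

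The other genes of these families were taken from fixed lists, and were counted with undetected signals raised to the detection limit. On that basis 11.6% of all probes were at least 2-fold higher and 10.5% at least 2-fold lower in PCBs than in the precursors. Of 10 further CXC and CX3C chemokines with a probe, 7 were detected and 4 could be compared between PCBs and Flk1+ MPCs. Cxcl2 and Cxcl15 were at least 2-fold higher in PCBs, and Cxcl16 and Cx3cl1 at least 2-fold lower. Cx3cl1, the membrane-bound chemokine fractalkine, measured 5385 units in Flk1+ MPCs, 2851 in sfPCBs and 1088 in PCBs, and 4691 in M+CMs, so PCBs held its lowest signal. Of 16 further CC and C chemokines, 11 were detected, and of the 10 compared 2, Ccl4 and Ccl9, were at least 2-fold higher in PCBs and 2 lower. Ccl4 was detected at day 5.5 alone, at 258 units in sfPCBs and 140 in PCBs, whereas Ccl17 was brightest in sfPCBs at 274 units and measured 29.6 in PCBs. Not every chemokine was thus high at day 5.5, and Cxcl11 and Ccl21a had no matched probe.

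Of 17 further IL-6 family and inflammatory cytokines, 13 could be compared between PCBs and Flk1+ MPCs, of which 5 were at least 2-fold higher and 2 lower. Csf1, the macrophage growth factor, measured 264 units in Flk1+ MPCs, 13705 in sfPCBs and 8650 in PCBs, and 2058 in M+CMs. The alarmin Il33 measured 728 units in sfPCBs and 260 in PCBs, and 38.5 in M+CMs and was not well above background in Flk1+ MPCs. Interferon beta (Ifnb1) was detected in the day 5.5 populations alone, at 115 units in sfPCBs and 101 in PCBs. Il15, a lymphocyte growth factor, was higher in PCBs, with 126 units against 58.0 in sfPCBs. The upstream cytokines Il1a and Il1b were not well above background in any population. Of 9 genes of IL-6 signal transduction, Stat3 and Socs3 were among those at least 2-fold brighter in PCBs than in the precursors and 0 were lower. Socs3, the feedback inhibitor of gp130 signalling, measured 3524, 23690, 18870 and 28965 units, and in contrast to Il6 it stayed bright in M+CMs.

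Regulators upstream of these genes were counted in the same way. Of 14 genes for NF-κB subunits, inhibitors and kinases, Nfkbiz and Bcl3 were at least 2-fold brighter in PCBs than in the precursors. None was at least 2-fold lower. Of all probes, 11.6% were higher and 10.5% lower by that much. The median log2 ratio was 0.39 beside -0.19 over all probes. Without scaling, 5 of the 14 were at least 2-fold higher, where 15.0% of all probes were. Bcl3, a nuclear IκB protein, measured 307, 5122, 2214 and 9932 units, and Nfkbiz, another nuclear IκB protein, 149, 782, 624 and 1556 units, so both were brightest in M+CMs, where most of the 10 genes were dim. Of 18 genes for innate sensing and upstream cytokine receptors, 10 were at least 2-fold higher in PCBs and 2, Ddx58 and Ifih1, at least 30-fold higher, with a median of 1.25, beside the 11.6% of all probes at least 2-fold higher. The RNA sensors Ddx58 and Ifih1 measured 16211 and 4740 units in PCBs, 17082 and 4564 in sfPCBs, and 177 and 29.5 in Flk1+ MPCs. The interleukin 1 receptor Il1r1 was not well above background in Flk1+ MPCs and measured 491 units in sfPCBs and 384 in PCBs, and 1051 in M+CMs. Of these 3, the RNA sensors were lower in M+CMs than at day 5.5, at 1824 and 354 units, and Il1r1 was higher.

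Of 8 interferon regulatory factors and partners, 4 were at least 2-fold brighter in PCBs than in the precursors and 1, Irf8, was lower, beside 11.6% and 10.5% of all probes. Irf7, which amplifies the interferon response, measured 22.1 units in Flk1+ MPCs, 1407 in sfPCBs and 3115 in PCBs, and 48.6 in M+CMs, a profile that was high at day 5.5 alone. Irf5 was different, with 90.2, 1383, 2097 and 3403 units. Of 12 NF-κB target genes outside the chemokines that could be compared, 6 were at least 2-fold higher in PCBs and 0 lower, beside the same shares of all probes, with a median of 1.80. Cfb, complement factor B, measured 1047 units in sfPCBs and 2233 in PCBs and was not well above background in Flk1+ MPCs and M+CMs. Ptgs2, the inducible cyclooxygenase, measured 19.9 units in Flk1+ MPCs, 4112 in sfPCBs and 1617 in PCBs and was not well above background in M+CMs. Vcam1, an adhesion molecule, instead remained at 4204 units in M+CMs after 2305 in sfPCBs and 1492 in PCBs. The other 6 target genes compared, Icam1, Lcn2, Sod2, Birc3, Mmp13 and Nos2, had log2 ratios of PCBs over Flk1+ MPCs between -0.64 and 0.82.

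**Figure D4:**
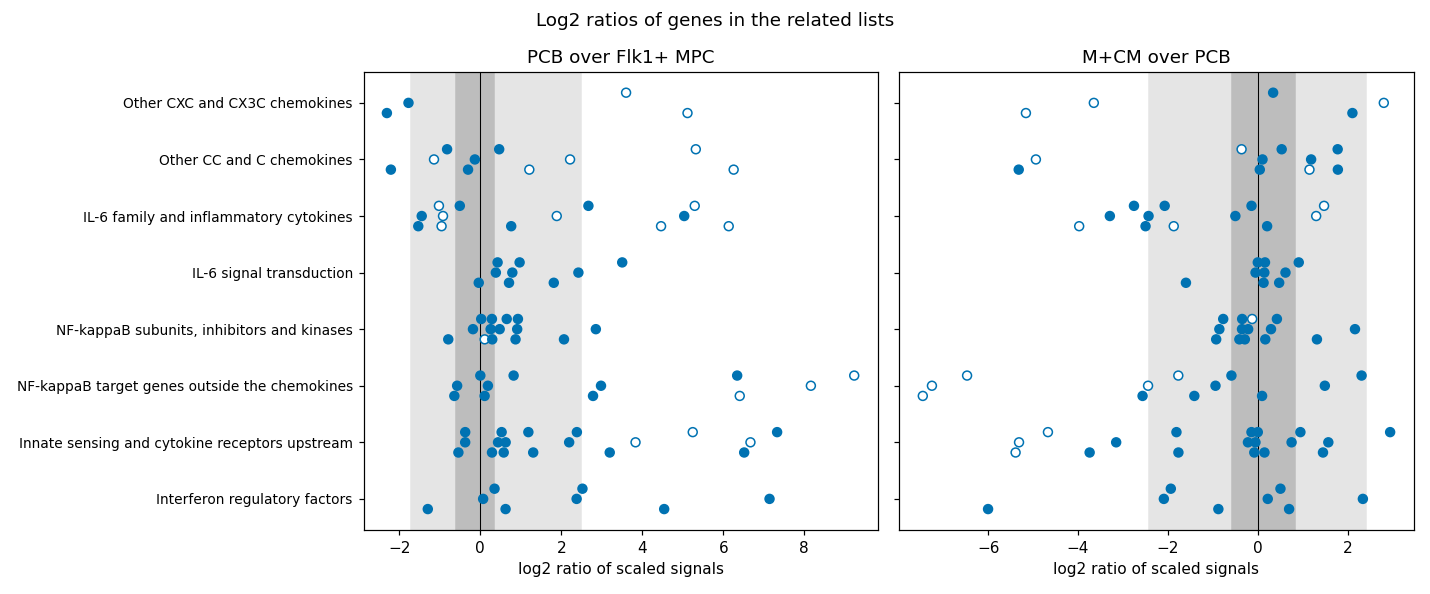
Log2 ratios of scaled signals of single genes in the lists of related genes for PCBs over Flk1+ MPCs and M+CMs over PCBs; filled circles were well above background on both arrays, open circles on 1 of them and have no firm size, and grey bands hold the middle 50% and 90% of all probes tested. NF-κB subunits, inhibitors and kinases lay between -0.79 and 2.85 in PCBs over Flk1+ MPCs. The filled circles of target genes lay between -0.64 and 6.34, of sensors between -0.54 and 7.33, and of interferon regulatory factors between -1.30 and 7.14. The lists thus overlapped.

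The labels were set against marker genes, and most stromal markers were, like most of the members, brighter in PCBs than in the precursors. The cardiomyocyte list summed to 12024 units in Flk1+ MPCs, 10048 in sfPCBs and 798819 in PCBs, and 2130770 in M+CMs, and the mesoderm genes Mesp1 and T were brightest in Flk1+ MPCs. The 2 probes for Kdr, which encodes Flk1, disagreed: 1 measured 54864, 4559, 768 and 2126 units and the other 11263, 6661, 7272 and 7499 units, so by the latter a Kdr signal remained in the Flk1- PCBs. Pdgfra, the other sorting marker, measured 7237, 3647, 9136 and 918 units.

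Of the 10 stromal and fibroblast markers, 6 were detected in Flk1+ MPCs, 10 in sfPCBs and 9 in PCBs, and 9 in M+CMs, and their summed signal was 4549, 295046, 151265 and 23802 units. The collagen gene Col1a1 measured 1110, 58341, 28386 and 860 units and the crosslinking enzyme Lox 2121 units in sfPCBs and 783 in PCBs, with Lox not well above background in the other populations. The summed signal of this list was thus high in the same pair of populations as the 8 genes. At day 5.5 most of the sum came from Col1a2, at 175056 units in sfPCBs and 109298 in PCBs. Thy1 went the other way, with 1065, 102, 147 and 74.2 units, brightest in Flk1+ MPCs. Between the day 5.5 populations, 7 of the 10 markers were at least 2-fold lower in PCBs (7.36% of all probes) and 0 higher (6.13% of all probes). The widest gaps were those of Lum, Dcn and Postn, with 8782, 3794 and 12884 units in sfPCBs and 30.2, 124 and 13.2 in PCBs, where Postn was not well above background. In M+CMs these 3 measured 104, 393 and 46.6 units. Among the 9 measured members, Il6 and Cxcl9 differed by at least 2-fold between the day 5.5 populations. Both had their brighter signal in PCBs, opposite to these stromal markers, and no member was brighter in sfPCBs by that much. The part of stromal cells in the members' signals was not tested.

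Markers of blood cells, a usual source of these chemokines, were mixed. Ptprc, the pan-leukocyte gene, measured 20.7 to 36.7 units on the 4 arrays and the macrophage gene Lyz2 was not well above background on any. The receptor gene Csf1r measured 1489.8 to 1684.4 units by its brightest probe and 40.0 to 53.0 by its dimmest. The whole blood and myeloid list, in which 8 of 9 genes with a probe were detected, summed to 19804, 19854, 17164 and 51082 units. Most of it came from the brightest of 3 Itgam probes, at 16321, 16282, 15163 and 49075 units, and the highest sum, in M+CMs, rests on that probe. The other Itgam probes were far dimmer, at 152, 92.3, 96.2 and 120 units and at 47.8, 36.8, 47.0 and 76.7 units. The endothelial list, with 5 of 6 genes detected, summed to 392 units in Flk1+ MPCs, 3617 in sfPCBs and 272 in PCBs, and 466 in M+CMs. Of its genes, Pecam1, Tek and Esam were well above background in PCBs, at 181, 40.4 and 35.4 units, and Cdh5 and Tie1 were not. The part of blood and endothelial cells in the members' signals was not tested either.

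**Figure D5:**
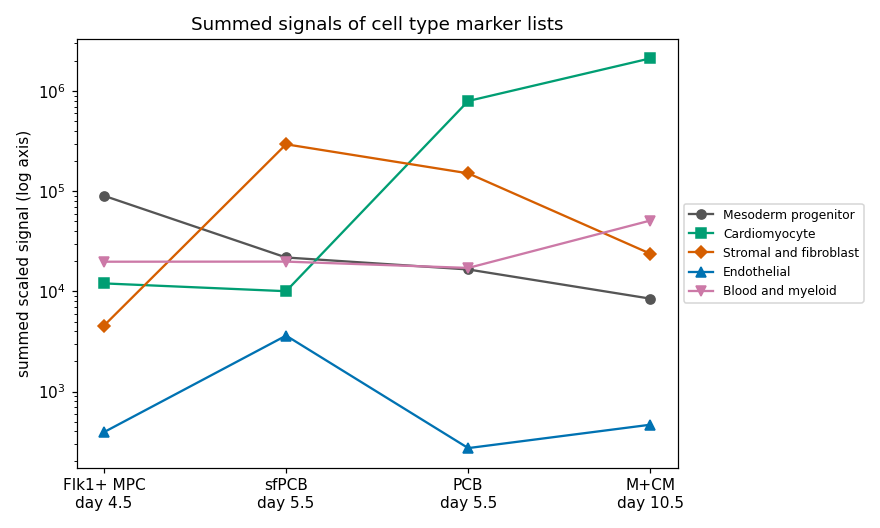
Summed scaled signal (log axis) of 5 cell type marker lists in the 4 populations, 1 array each; lines only join the points of 1 list. The stromal and fibroblast list stood at 295046 units in sfPCBs and 151265 in PCBs against 4549 in Flk1+ MPCs. In sfPCBs and PCBs most of that sum came from Col1a2. The cardiomyocyte list was high in PCBs and M+CMs. The blood and myeloid list lay between 17164 and 51082, most of it from 1 Itgam probe.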

How the data were processed

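Labelled RNA of 4 populations was hybridised to 1-colour Agilent arrays, 1 array each, all on 1 slide. The authors deposited spot intensity values from Feature Extraction 11.5.1.1 (design annotated on mm9), with the background-subtracted processed signal, its error and quality flags, not normalized between arrays. The deposited series table held log2 processed signal without scaling or centring, with medians of 6.88 (Flk1+ MPC), 7.40 (sfPCB), 7.19 (PCB) and 7.16 (M+CM), equal to the log2 processed signal within 5.0e-09 for probes spotted once; how it combined repeated spots is unknown.

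Control and outlier-flagged spots (87 to 144 per array) were dropped, signals were divided by the array's 75th percentile and multiplied by its mean over arrays, and repeats of a probe were averaged in log2. A probe was detected when at least 0.5 of its spots were well above background. A gene of the other lists took its brightest probe. Each of the 10 members took the brightest probe of its given RefSeq identifier, which for Cxcl12 was not the gene's brightest. Only probes detected on at least 1 array of a comparison entered it. Thresholds were 2-fold and 30-fold. Counts and medians with undetected signals raised to the detection limit were added after the data were seen. With 1 array per population no test was run. RefSeq symbols matched 26164 of 26583 NM_ probes; since its build (GRCm38.p6) is not that of the array, only names, gene order and promoters were used. Python 3.11.15 and limma 3.58.1 (R 4.3.3) were used, and counting was tested on simulated data. The normexp alternative used the median spot signal, although the mean had been planned. The members and lists were chosen with earlier results of these data known. Lists of up to 12 genes could be named in full, and longer ones by the 3 largest increases and decreases in each comparison. Gene neighbours, undetected genes, Cxcr2, and the target genes with small ratios were named after their values were seen. The number of arrays limits the precision.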

Additional observations from a re-analysis of the deposited data

How the results depend on the processing

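The 9 alternatives changed few counts of members. They were no scaling, quantile normalization, normexp with quantile normalization, an offset of 50, no detection filter and detection on both arrays. The others were the mean over probes, saturated spots left out, and the series table scaled alike. As no spot was saturated, leaving such spots out could change nothing. The series table held the same signals for probes spotted once, so it could move few counts. Of 180 counts of members past a threshold, 175 were within 1.5 times the reported count. For PCBs over sfPCBs, members at least 2-fold higher numbered 1 with normexp and quantile normalization and 1 with an offset of 50, instead of 2. For M+CMs over Flk1+ MPCs they numbered 1 with normexp and 2 with the offset, instead of 4, and 1 member was at least 2-fold lower with quantile normalization, instead of 0. Normexp and the offset of 50 both compress dim signals by construction. No sign of a called ratio reversed. The log2 ratio of Cxcl9 between M+CMs and PCBs was -2.48 with the mean over its probes, instead of 0.06. Of the members' log2 ratios, 303 differed from the reported value by less than the signal error and 78 by more. Of the counts over the other lists, taken from measured ratios, 697 were within 1.5 times and 113 were not. Of the shares of all probes past a threshold, 116 were and 44 were not. Leaving out a replicate was not possible with 1 array per population. No paired analysis was possible because each population had 1 sample. Ratios against a probe near 15 units, the detection limit, have no firm size.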
